A study of Mus musculus with 6 samples.

Results

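The nuclear genes of mitochondrial complex I were examined in brown fat with and without a brown adipocyte deletion of Wtap. The members were all protein-coding genes whose symbol begins with Nduf followed by a subunit letter and number, or is Ndufab1. This rule reads only symbols and gene type, and it found 39 of 55703 genes. Of these, 37 encode subunits of the complex. The other 2, Ndufa4 and its relative Ndufa4l2, carry the family name but are not counted as subunits. A total of 38 members passed the filter on low values and were tested, and Ndufs3 did not.

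RNA was sequenced from interscapular brown adipose tissue (iBAT) of C57BL/6 mice aged 8 weeks. The 3 Wtap flox/flox libraries were the controls. The 3 Wtap-BKO libraries came from mice that also carried Ucp1-iCre, a Cre recombinase placed behind an internal ribosome entry site in the Ucp1 gene, which is active in brown adipocytes. Both groups carried Wtap alleles with exon 4 between loxP sites, and mice with the Cre alone were not analysed here. WTAP belongs to the enzyme complex that adds N6-methyladenosine to RNA. The question was how complex I transcripts differed when Wtap was deleted in brown adipocytes.

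Complex I, NADH:ubiquinone oxidoreductase, is the entry point of electrons from NADH into the respiratory chain. It is L-shaped, with an arm in the mitochondrial matrix and an arm in the inner membrane. In the matrix arm, the N module takes electrons from NADH and the Q module hands them to ubiquinone. The membrane arm pumps protons. Core subunits, conserved from bacteria, do the chemistry, and supernumerary subunits surround them. The core subunits of the membrane arm are encoded by mitochondrial DNA, and all other subunits by nuclear genes. Brown adipocytes are packed with mitochondria, and their respiratory chain feeds the proton leak through UCP1 that produces heat.

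The libraries held 15979694 to 19005123 reads assigned to genes. The Wtap gene had 8.00, 8.63 and 8.16 FPKM in the 3 controls and 11.8, 12.3 and 12.7 in Wtap-BKO. FPKM are fragments scaled by gene length in kilobases and by library size. The whole-gene value was thus higher in the libraries labelled Wtap-BKO, by 0.56 ± 0.09 (SE) on the log2 scale (adjusted p = 0.0160), and it cannot check the removal of a single exon. This call was lost when any 1 control or Wtap-BKO replicate 3 was left out. Wtap-BKO below stands for the libraries so labelled. Ucp1, into which the Cre was inserted, was 1651, 2072 and 1586 FPKM in flox/flox and 293.0, 495.1 and 286.7 in Wtap-BKO (adjusted p = 0.00495). The 8 brown adipocyte markers summed to 4062 to 5037 FPKM in flox/flox and 1864 to 2880 in Wtap-BKO, with Ucp1 and Ppara called lower. Without Ucp1, the other 7 summed to 2476 to 3065 FPKM in flox/flox and 1577 to 2384 in Wtap-BKO. Elovl3, a fatty acid elongase, went the other way, with 0.192 to 1.68 FPKM in flox/flox and 3.14 to 18.9 in Wtap-BKO (3.27 ± 0.82, adjusted p = 0.0516). The 8 general adipocyte markers summed to 4878 to 5331 FPKM in flox/flox and 5148 to 5809 in Wtap-BKO. Of these 8, Adipoq was called higher (0.66 ± 0.13, adjusted p = 0.0259). The 15 skeletal muscle markers summed to 961.1 FPKM in the second control, flox/flox replicate 2, to 1577 in Wtap-BKO replicate 3, and to 32.0 to 48.7 in the others. Macrophage markers summed to 172.3 to 259.3 FPKM in flox/flox and 257.8 to 398.2 in Wtap-BKO (3 of 10 higher), and fibroblast markers to 146.0 to 177.5 and 195.8 to 310.9 (1 of 7 higher). Endothelial markers summed to 253.3 to 337.4 FPKM and 181.0 to 306.2. Beside these calls, 3.88% of all 13507 tested genes were called lower and 6.10% higher. No marker of these lists was at 0 in all libraries, and their part in the results below was not tested. In bulk tissue, fewer cells of a type and less RNA per cell cannot be told apart.

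The 37 subunit genes lie on 16 chromosomes. Their promoters were searched for short motifs that are background to respiratory gene control. RefSeq promoter windows of the GRCm38.p6 build, from 250 bases before the start site to 50 after it, were matched for 32 subunits. The NRF1 motif GCGCANGCG, read on both strands, was found for 8 of 32 subunits (25.0%) and in 6.25% of all 32851 promoters. The letters AAGATGG, the core of the YY1 motif, were found for 7 subunits (21.9%) and in 6.34% of all promoters. The ERR motif AAGGTCA was found for 3 subunits (9.38%, against 4.72%), the ETS motif CCGGAAGT for 1 (3.12%, against 3.89%) and the SP1 motif GGGCGG for 15 (46.9%, against 35.7%). The median GC content was 59.2% in the subunits' windows and 52.7% in all windows. The motif shares were not adjusted for this difference in composition. The 32 subunits had 34 different windows, and a subunit counted if any of its windows matched. The share over all promoters counts single windows. A match is only a run of letters, and binding was not measured. Among the subunits whose transcripts were called lower below, 3 of 9 with a promoter window held the NRF1 motif, and among the other tested ones 5 of 22 did. The 4 stretches upstream of the start sites, outside all genes of the deposited table, are printed below to compare a called and an uncalled subunit with the NRF1 motif (Ndufb4 and Ndufs5) with 2 called subunits without it (Ndufv1 and Ndufc2). Capitals mark the NRF1 motif. The stretches are chr16:37654454-37654573 (minus strand), chr4:123718203-123718322 (minus), chr19:4012807-4012926 (minus) and chr7:97399883-97400002 (plus).
Ndufb4: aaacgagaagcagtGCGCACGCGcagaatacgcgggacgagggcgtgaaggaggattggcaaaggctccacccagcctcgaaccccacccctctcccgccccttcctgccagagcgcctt
Ndufs5: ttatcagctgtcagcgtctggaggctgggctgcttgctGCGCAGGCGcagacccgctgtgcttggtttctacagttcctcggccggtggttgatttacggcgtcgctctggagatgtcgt
Ndufv1: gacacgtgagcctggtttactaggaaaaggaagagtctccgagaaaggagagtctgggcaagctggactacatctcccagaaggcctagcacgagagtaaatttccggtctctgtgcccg
Ndufc2: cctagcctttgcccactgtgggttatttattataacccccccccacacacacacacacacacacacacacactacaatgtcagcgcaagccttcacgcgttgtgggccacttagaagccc

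Subunit transcripts were abundant in control brown fat. Of the 36 tested subunits, 26 exceeded 100 FPKM as a mean of the Wtap flox/flox libraries, and the median was 192.2 FPKM. Ndufa4, which is not a subunit, was the most abundant member. It was 563.0, 570.9 and 490.4 FPKM in flox/flox and 415.1, 441.5 and 387.1 in the libraries labelled Wtap-BKO. All 3 Wtap-BKO values were below all flox/flox values, but the difference of -0.38 ± 0.12 on the log2 scale was not called (adjusted p = 0.0818). Ndufb2 was the lowest subunit, with 2.64, 3.20 and 2.36 FPKM in flox/flox and 2.26, 2.19 and 2.08 in Wtap-BKO. Its difference was -0.31 ± 0.15 and was not called (adjusted p = 0.230). The groups did not overlap, but flox/flox replicate 3 was only slightly above Wtap-BKO replicate 1. The plot of levels shows that the order of the genes was largely kept between the groups (Spearman rho 0.98 over 36 subunits, which share their libraries and gene lengths).

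**Figure D1:**
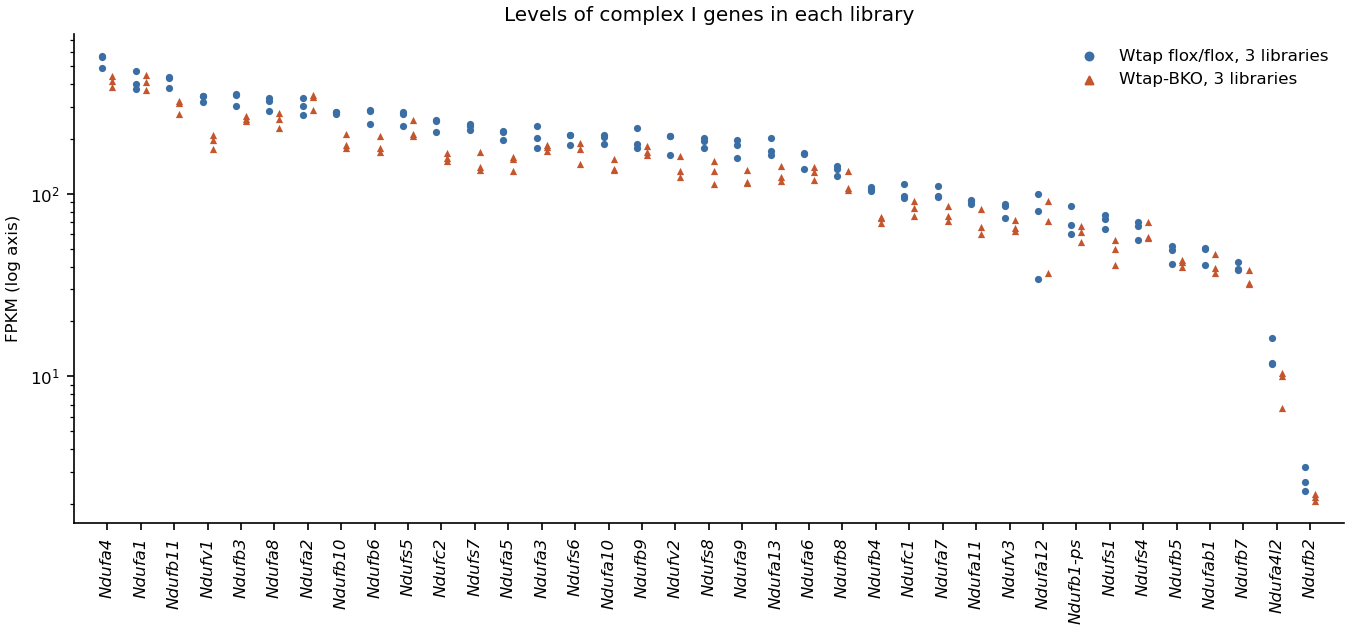
FPKM (log axis) of 37 tested members in each library, ordered by the mean of Wtap flox/flox. Circles are the 3 flox/flox libraries and triangles the 3 Wtap-BKO libraries. Triangles lie below all circles for most genes, and Ndufa12 has 1 low library in each group.

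Levels per length depend on the length used. The deposited lengths are the union of all annotated exons, and all 39 members had exactly that length in GENCODE M21. For Ndufb5 and Ndufb7, supernumerary subunits of the membrane arm, this length was 7.99 and 7.26 times the median coding transcript. When levels were scaled by the median coding transcript, a choice made after seeing the data, the highest subunit was Ndufa6 with 737.1 FPKM, and Ndufb2 was still lowest with 6.37. Ratios between the groups do not depend on this length.

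In the libraries labelled Wtap-BKO, complex I transcripts were mostly at lower levels than in controls. Of 38 tested members, 10 were called lower at an adjusted p under 0.05 with limma (26.3% of the members), where 3.88% of all 13507 tested genes were called lower. No member was called higher, where 6.10% of all tested genes were. None was higher at an unadjusted p under 0.05 or with voom either. A fitted difference below 0 was seen for 37 of 38 members, against 50.4% of all genes, and for 34 of 38 when libraries were scaled by their totals. All 3 Wtap-BKO libraries were below all 3 flox/flox libraries for 24 members, against 16.9% of all genes. The median difference was -0.38 on the log2 scale over the members and -0.004 over all tested genes. The 9 called subunits named below fell by 29.1% to 42.0%. The count was 13 with voom and 5 when libraries were scaled by their totals. That scaling gave 310 lower and 1115 higher calls over all genes, in place of 524 and 824, so that 78.2% in place of 61.1% of calls were higher.

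The number of calls depended on single libraries. It was 0 without flox/flox replicate 1 or 2, 4 without flox/flox replicate 3, 1 without Wtap-BKO replicate 3 and 8 without Wtap-BKO replicate 1 or 2. Without flox/flox replicate 3, Ndufv1, Ndufc2, Ndufa9 and Ndufb4 kept their calls, and without Wtap-BKO replicate 3 Ndufv1 did. With 1 library left out, the highest adjusted p among the called members named below was 0.139, for Ndufb6. In the fits with no call, 17 and 16 members had an unadjusted p under 0.05. Without both libraries that held muscle transcripts, 0 members and 0 of all tested genes were called by limma, with 8 members and 2217 genes at an unadjusted p under 0.05. The members' median was then -0.27, and 33 of 38 differences were below 0.

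**Figure D2:**
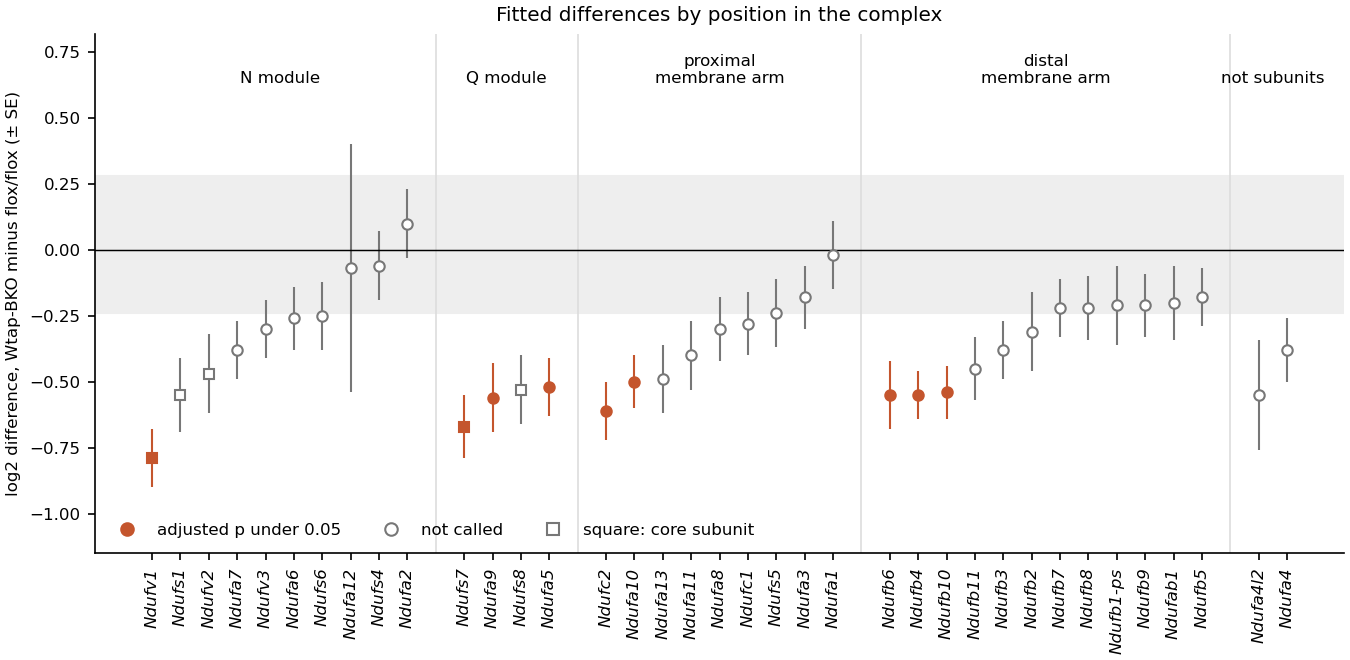
Fitted log2 difference (Wtap-BKO minus flox/flox) with its SE for 37 tested members, by position in the complex. Filled symbols have an adjusted p under 0.05, squares are core subunits, and the grey band holds the middle of all 13507 tested genes (quartiles -0.24 and 0.28). Only Ndufa2 lies above 0, and the 9 filled ones lie between -0.79 and -0.50.

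The Q module had 4 of its 5 tested subunits called lower, with a median of -0.53. All 5 had groups that did not overlap. Of all tested genes, 3.88% were called lower and 16.9% had every Wtap-BKO library below every flox/flox library. The N module had 1 of 10 called and a median of -0.28. The proximal membrane arm had 2 of 9 called and a median of -0.30, and the distal membrane arm 3 of 12 and -0.26. Core subunits had 3 of 6 called and a median of -0.54, and supernumerary subunits 7 of 30 and -0.29. Differences between these classes were not tested.

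Ndufv1, the core subunit that binds NADH and holds the flavin, had the largest difference of all members. It was 345.4, 346.2 and 319.5 FPKM in flox/flox and 211.2, 198.2 and 177.2 in the libraries labelled Wtap-BKO. Every Wtap-BKO library was far below the lowest control. The mean was 42.0% lower, a difference of -0.79 ± 0.11 on the log2 scale (adjusted p = 0.0102). Ndufv1 (ENSMUSG00000037916) lies on chromosome 19 from 4007384 to 4012806 and shares no exon base with another gene. Leaving out flox/flox replicate 1 or 2 ended its call (highest adjusted p = 0.0532). Of the other N module subunits, Ndufs1 and Ndufv2, which carry iron-sulfur clusters, were at -0.55 ± 0.14 (adjusted p = 0.0542) and -0.47 ± 0.15 (adjusted p = 0.0943).

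In the Q module, Ndufs7, the core subunit with the iron-sulfur cluster that passes electrons to ubiquinone, was 236.7, 242.7 and 225.6 FPKM in flox/flox. In Wtap-BKO it was 169.0, 140.9 and 135.2, lower by 36.9% (-0.67 ± 0.12, adjusted p = 0.0194). Its groups were well apart. Ndufa9, a supernumerary subunit where the matrix and membrane arms meet, was 197.2, 186.6 and 157.1 FPKM in flox/flox and 116.2, 136.0 and 114.8 in Wtap-BKO (-0.56 ± 0.13, adjusted p = 0.0390). Ndufa5, another supernumerary subunit of this module, was 222.4, 219.7 and 198.9 in flox/flox and 160.5, 154.6 and 133.1 in Wtap-BKO (-0.52 ± 0.11, adjusted p = 0.0333). In both genes flox/flox replicate 3 was the lowest control and still above every Wtap-BKO library. Ndufs8, an iron-sulfur core subunit, was just outside the threshold at -0.53 ± 0.13 (adjusted p = 0.0504).

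In the proximal membrane arm, Ndufc2 and Ndufa10 were called. Ndufc2 was 255.8, 252.4 and 218.8 FPKM in flox/flox and 167.3, 157.5 and 150.8 in Wtap-BKO (-0.61 ± 0.11, adjusted p = 0.0200). Ndufa10, which has the fold of a nucleoside kinase, was 209.4, 205.6 and 187.7 in flox/flox and 137.7, 154.6 and 134.8 in Wtap-BKO (-0.50 ± 0.10, adjusted p = 0.0302). Both were about equally low in all 3 Wtap-BKO libraries. Ndufa13, also known as GRIM-19, was at -0.49 ± 0.13 (adjusted p = 0.0544). Ndufa1 was nearly level, with 400.9, 473.2 and 377.8 FPKM in flox/flox and 448.3, 409.2 and 373.2 in Wtap-BKO. Its groups overlapped throughout (-0.02 ± 0.13, adjusted p = 0.932), and its sign turned with the scaling by library totals.

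In the distal membrane arm, Ndufb4, Ndufb10 and Ndufb6 were called, all supernumerary. Ndufb4 was 106.4, 109.9 and 103.3 FPKM in flox/flox and 75.1, 73.4 and 69.3 in Wtap-BKO (-0.55 ± 0.09, adjusted p = 0.0143). Ndufb10 was 282.6, 280.2 and 276.2 in flox/flox and 212.5, 178.5 and 186.0 in Wtap-BKO (-0.54 ± 0.10, adjusted p = 0.0250). Both had controls within a narrow range. Ndufb6 was 287.0, 285.9 and 241.6 in flox/flox and 178.7, 208.2 and 169.8 in Wtap-BKO (-0.55 ± 0.13, adjusted p = 0.0395). Ndufb11, on the X chromosome, was at -0.45 ± 0.12 (adjusted p = 0.0565), and the other 8 subunits of this arm were between -0.38 and -0.18, none of them called.

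Some values are uncertain because genes share sequence. Strand use in counting was not given in the sources used here. Exons of Ndufb6 shared 39.0% of their bases with Smim27 on the opposite strand, and those of Ndufa9 3.19% with 1700018A23Rik. In all, 7 members shared over 10%, among them Ndufa13 (30.0%, Tssk6), Ndufb9 (19.5%, Gm49356 on the same strand) and Ndufb11 (12.9%, Rbm10). Ndufb2, the lowest subunit, shared 7.94% with Braf, Gm16272 and Gm42420, the last on its own strand. The part of this sharing in their values was not tested. Of the called members, 7 shared no exon base with another gene. Ndufb4 has a copy, Ndufb4c, at 15.7 FPKM in flox/flox, and Ndufs6 has Ndufs6b at 8.17. Ndufab1, the mitochondrial acyl carrier protein, was at 47.2 FPKM in flox/flox while its pseudogene Ndufab1-ps was listed at 143.3, so reads of the pair may be split. Ndufb1-ps, counted here as the mouse Ndufb1 gene, is protein-coding in the deposited table but a long non-coding RNA in GENCODE M21.

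Ndufa2, a small N module subunit, was the only tested member with a positive difference with the deposited scaling. It was 305.5, 335.2 and 271.0 FPKM in flox/flox and 349.5, 338.3 and 287.5 in the libraries labelled Wtap-BKO. The groups overlapped, and the difference of 0.10 ± 0.13 was not called (adjusted p = 0.663). Ndufs4 of the same module was at -0.06 ± 0.13 (adjusted p = 0.806), with 56.3 to 70.0 FPKM in flox/flox and 57.2 to 70.4 in Wtap-BKO. Ndufa12 varied far more within the groups than any other subunit. It was 80.6, 100.1 and 34.2 FPKM in flox/flox and 36.9, 91.5 and 71.2 in Wtap-BKO. The low libraries were flox/flox replicate 3 and Wtap-BKO replicate 1. Its difference of -0.07 had an SE of 0.47 (adjusted p = 0.943). Ndufa4l2, known as a gene induced by low oxygen, was 11.7, 11.9 and 16.2 in flox/flox and 9.99, 10.5 and 6.73 in Wtap-BKO. These groups did not overlap, but the difference of -0.55 ± 0.21 was not called (adjusted p = 0.137).

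Ndufs3, a core subunit of the Q module, could not be read from its own row. It was listed at 0 in 5 libraries and had 1 read in flox/flox replicate 1. A count of 0 allows up to 3 reads, or 0.0724 to 0.0872 FPKM, for counting error only. Its neighbours on chromosome 2, C1qtnf4, Kbtbd4, Ptpmt1 and Rapsn, were also listed at 0 in all libraries. The table also holds an unnamed locus on a patch sequence of the assembly, from 90894627 to 90904711, where Ndufs3 is given from 90894634 to 90904827. The file annotates it with the domain of the 30 Kd subunit of respiratory-chain NADH dehydrogenase. This locus was 6.99, 15.6 and 38.9 FPKM in flox/flox and 33.1, 71.3 and 64.5 in the libraries labelled Wtap-BKO. The groups overlapped, and the difference of 1.71 ± 0.60 was not called (adjusted p = 0.119). Ndufs3 is therefore given no level here, and the locus was not counted among the members.

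**Figure D3:**
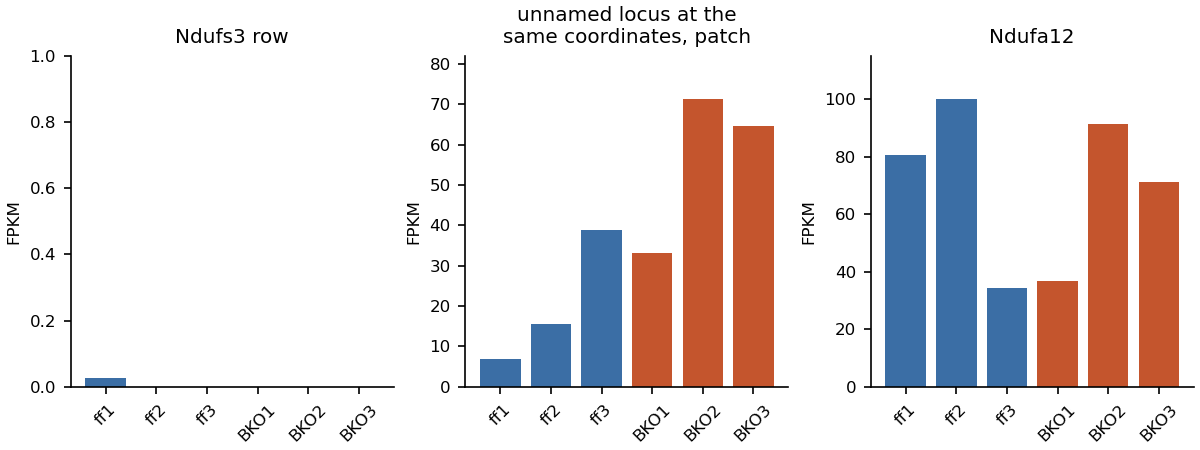
FPKM in each library (ff, Wtap flox/flox; BKO, Wtap-BKO) for the Ndufs3 row, for the unnamed locus at the matching coordinates on the patch sequence, and for Ndufa12. The Ndufs3 row is at 0 in 5 libraries, the locus spans 6.99 to 71.3 FPKM, and Ndufa12 is low in flox/flox replicate 3 and Wtap-BKO replicate 1.

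Libraries of a group differed in level across the subunits. Relative to the flox/flox mean of each subunit, the median over the 36 subunits was 0.06, 0.06 and -0.14 on the log2 scale in the 3 controls in replicate order. It was -0.31, -0.31 and -0.46 in Wtap-BKO. Wtap-BKO replicate 3 was the lowest library for 30 of the 36 subunits, and flox/flox replicate 3 was the highest for none. Wtap-BKO replicate 3 also held the most muscle RNA and the lowest sum of the brown adipocyte markers, 1864 FPKM against 2383 and 2880 in the other Wtap-BKO libraries. Their part in its low values was not tested. The 37 subunits summed to 6833 ± 531.9 FPKM in flox/flox and 5306 ± 368.0 in Wtap-BKO (SD, n = 3), a sum 22.3% lower. They took 0.956% to 1.10% of all reads in flox/flox and 0.762% to 0.910% in Wtap-BKO.

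**Figure D4:**
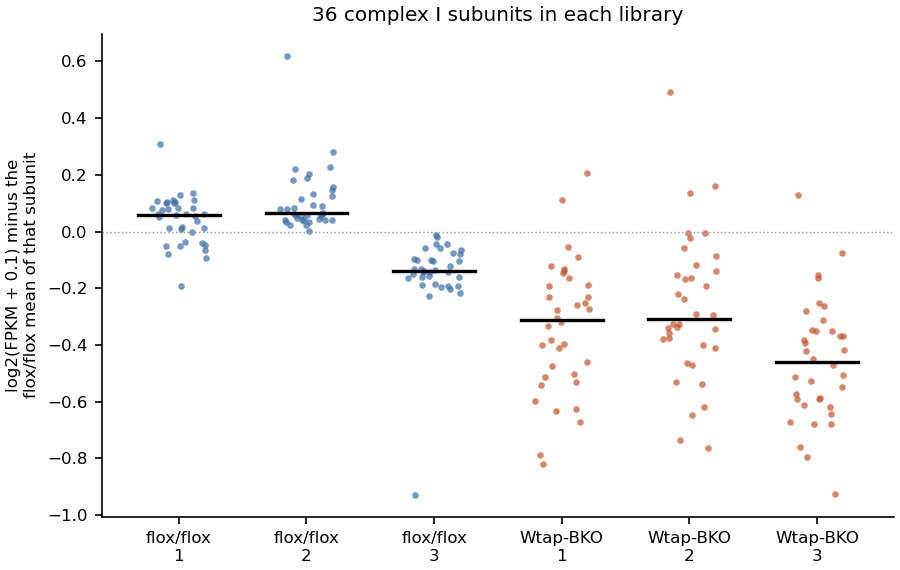
log2(FPKM + 0.1) of each of the 36 tested subunits minus its mean in Wtap flox/flox, by library. Dots are subunits and bars are medians, which run from -0.14 to 0.06 in flox/flox and from -0.46 to -0.31 in Wtap-BKO. The isolated dots far from the rest are Ndufa12.

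The 7 subunits encoded by mitochondrial DNA were lower as well. All 7 had groups that did not overlap, and mt-Nd3, mt-Nd4, mt-Nd5 and mt-Nd6 were called, with a median of -0.95 over the list. Among all tested genes, 3.88% were called lower, and 16.9% had every Wtap-BKO library below every flox/flox library. mt-Nd5, one of the proton-pumping subunits, was 7029, 6797 and 8233 FPKM in flox/flox and 3238, 3986 and 4015 in Wtap-BKO (-0.97, adjusted p = 0.0215). Flox/flox replicate 3 was the highest library for mt-Nd5, whereas it was the highest for no tested nuclear subunit. Mitochondrial DNA gave 18.3% to 22.4% of all reads in flox/flox and 11.0% to 12.2% in Wtap-BKO. The smallest difference of this list, -0.64 for mt-Nd1, was not called (adjusted p = 0.0878).

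Assembly factors, which build the complex but are not part of it, had a median of -0.02 over 21 genes. Of these, 1 was called lower and 1 higher (4.76% each), near the 3.88% and 6.10% of all tested genes. Tmem186, a factor of the membrane arm, was called lower, at 12.2, 12.7 and 12.2 FPKM in flox/flox and 8.37, 5.04 and 7.10 in Wtap-BKO (-0.88, adjusted p = 0.0312). Ndufaf4, which acts early in the assembly of the Q module, was called higher. It was 10.4, 9.99 and 12.5 FPKM in flox/flox and 16.9, 36.7 and 21.7 in Wtap-BKO (1.12, adjusted p = 0.0477). Both had groups that did not overlap, in opposite directions.

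**Figure D5:**
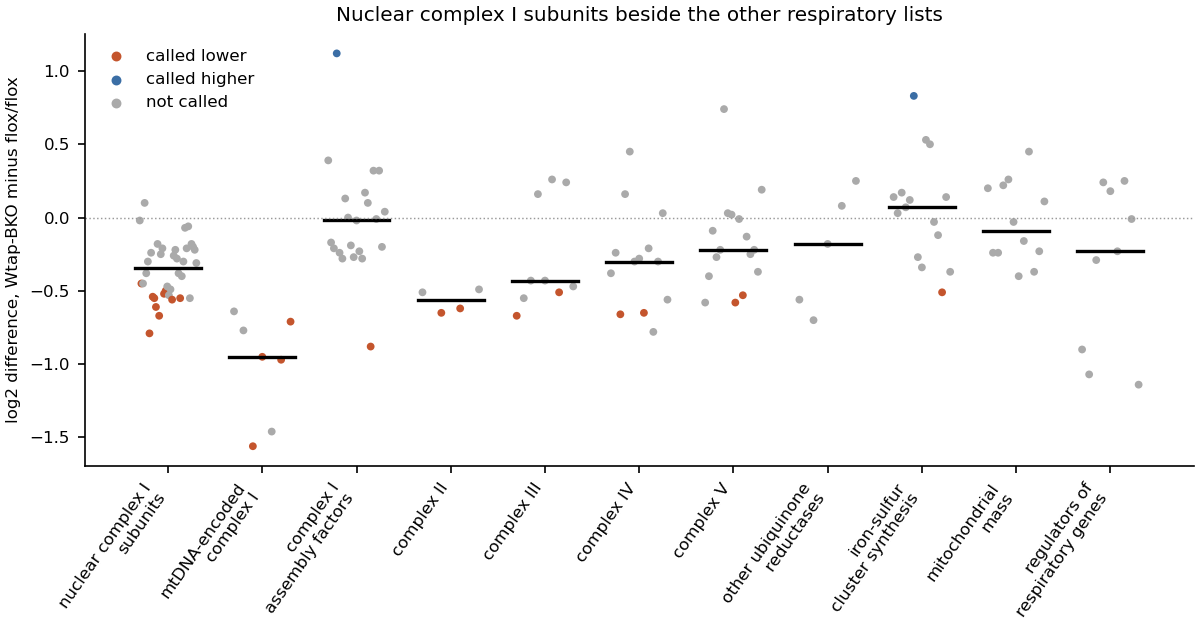
Fitted log2 difference (Wtap-BKO minus flox/flox) of the 36 tested nuclear subunits beside other lists. Dots are genes, coloured where called lower or higher, and bars are list medians, from -0.95 for the subunits encoded by mitochondrial DNA (mtDNA) to 0.07 for iron-sulfur cluster synthesis.

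The other respiratory complexes had negative medians too. Over all tested genes, 3.88% were called lower and 6.10% higher. Complex II had 2 of 4 genes called lower and a median of -0.57. The called genes were Sdhb and Sdhc, at -0.65 and -0.62 (adjusted p = 0.0183 and 0.0131). Complex III had 2 of 9 and -0.43, with Uqcrc1 (-0.67) and Uqcrh (-0.51) called and Uqcrq at 0.26 (adjusted p = 0.291). Uqcrc1 was at a mean of 8.59 FPKM in flox/flox, where the other complex III genes were at 310.8 to 676.9. Complex IV had 2 of 13 and -0.30, with Cox5b (-0.66) and Cox7a1 (-0.65) called. Its largest positive value was 0.45 for Cox6a2, the muscle isoform, which was 42.5 FPKM in Wtap-BKO replicate 3, 18.1 in flox/flox replicate 2 and at most 0.309 elsewhere. Complex V had 2 of 16 and -0.22, with Atp5h (-0.58) and Atp5j2 (-0.53) called and Atp5g1 at 0.74 (adjusted p = 0.337). Atp5g1 was low, at means of 1.49 FPKM in flox/flox and 2.62 in Wtap-BKO, and its groups overlapped. No gene of complexes II to V was called higher, none at an unadjusted p under 0.05 and none with voom. Whether complex I differed from these complexes was not tested. The calls of the genes named from these complexes, from the assembly factors and from mitochondrial DNA were all lost without flox/flox replicate 1 or 2. With 1 library left out, Uqcrh, Cox7a1 and mt-Nd6 were called in 0 of 6 fits. Cox5b, Atp5j2, mt-Nd3 and mt-Nd4 were called in 1 of 6, and the other called genes in 2 or 3.

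Other mitochondrial lists had medians between -0.23 and 0.07. Of 12 genes taken as measures of mitochondrial mass, 0 were called with limma and 0 with voom (median -0.10), with 2 lower and 1 higher at an unadjusted p under 0.05. Timm23, an import channel subunit, had the largest positive value, 0.45 (adjusted p = 0.146). Of 15 genes for iron-sulfur cluster synthesis, Nfu1, which delivers clusters to target proteins, was called lower (-0.51, adjusted p = 0.0314), and Fdxr, ferredoxin reductase, higher (0.83, adjusted p = 0.0251). Their median was 0.07, and both calls were lost without flox/flox replicate 1 or 2. With 1 library left out, Nfu1 was called in 1 of 6 fits and Fdxr in 2. The 1 lower call was 6.67% of the list, where 3.88% of all tested genes were called lower and 6.10% higher. Of 5 other enzymes that reduce ubiquinone, 0 were called with limma and 0 with voom, with 1 lower and 1 higher at an unadjusted p under 0.05. Their median was -0.18, and Aifm2 was at 0.25 (adjusted p = 0.134). Of 9 regulators of respiratory genes, 0 were called with limma and 2 lower with voom, with 4 lower and 1 higher at an unadjusted p under 0.05. Their median was -0.23, and Yy1 was at 0.25 (adjusted p = 0.135). The regulators Perm1 at -1.14 (adjusted p = 0.0502), Ppargc1b at -1.07 (adjusted p = 0.0538) and Ppargc1a at -0.90 (adjusted p = 0.145) had larger differences than any nuclear subunit. They were named after their values were seen. All had every Wtap-BKO library below every flox/flox library, as 16.9% of all tested genes did. The groups of Ppargc1a nearly touched, with 8.15, 17.1 and 7.32 FPKM in flox/flox and 7.30, 4.35 and 4.87 in Wtap-BKO.

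Across the 36 subunits, the size of the difference was weakly related to level and hardly to length. Spearman rho of the log2 difference was -0.27 with the flox/flox mean and -0.08 with gene length. These are descriptions over genes of the same libraries. Subunit genes were short, with a median deposited length of 1532 bases against 4422 for all tested protein-coding genes.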

How the data were processed

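RNA of iBAT from 3 Wtap flox/flox and 3 Wtap-BKO mice was measured. The authors aligned reads to GRCm38.p6 with HISAT2 2.0.5, counted them with featureCounts 1.5.0-p3 and used DESeq2 1.16.1. The deposited values are FPKM, already scaled between libraries by the authors: the library sizes behind them equalled median-of-ratios factors (ratio 1.000). Reads were recovered from FPKM and gene length, and 100% were whole within 0.01, with 15979694 to 19005123 per library. Replicates were biological per the study, and p-values rest on the spread between libraries. Unnamed loci took 0.0940% to 0.151% of reads.

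Limma 3.58.1 (R 4.3.3) was fitted to log2(FPKM + 0.1), with a variance trend and the group as its only term. This scale understates changes of low genes. Genes entered if their mean reached 0.5 FPKM and 10 reads, which 13507 did. P-values were two-sided and Benjamini-Hochberg adjusted over all these genes. Alternatives were other scalings, filters, pseudocounts and variance models, voom on recovered reads, omitted libraries and a block for the replicate number. Members and gene lists were chosen with earlier results of these data known. Library values are given for called members, the member with the largest opposite difference, the highest and lowest members and those that are not subunits. The result of 1 called member is not reported here. From each other list, called genes and the largest opposite difference are named. Further members (such as Ndufa12, Ndufa1 and Ndufs4) and the locus beside Ndufs3 were named after their values were seen. Replicates differed by more than counting noise (chi-square per degree of freedom 22.6 to 117.5) and were counted separately. Gene coordinates are those of the deposited table. Exon overlaps came from GENCODE M21, which held 55240 of 55703 gene identifiers.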

Additional observations from a re-analysis of the deposited data

How the results depend on the processing

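The members' median difference was negative under all 17 alternatives, and no member was called higher in any. Scaling by library totals gave 5 members called lower and 310 of all genes lower. The filter keeping every gene with a mean above 0 gave 4 members lower, with 245 genes lower and 442 higher. Without both libraries with muscle transcripts there were 0 members lower, 0 genes lower and 0 higher. Leaving out 1 library gave 0 to 8 members lower, 93 to 425 genes lower and 229 to 851 higher. Libraries with equal replicate numbers did not deviate together (correlations of deviations -0.13, -0.53 and -0.28 for equal numbers, and -0.50 to 0.66 for unequal ones). For flox/flox replicates 1, 2 and 3 the highest values were 0.61, 0.66 and 0.34, with Wtap-BKO replicates 2, 3 and 1. These are deviations from means of 3 libraries, so the correlations depend on one another and can neither establish nor exclude a pairing. With the replicate block, 1 member was lower, 97 genes were lower and 211 higher. The signs of 4 uncalled members changed. Ndufa1 was at 0.06 with library totals, 0.14 without both muscle libraries and between -0.09 and 0.07 with 1 library left out. Ndufa12 was at 0.02 with library totals, 0.15 without both muscle libraries and between -0.53 and 0.31 with 1 library left out. Ndufs4 was at 0.03 with library totals, 0.02 without both muscle libraries and between -0.16 and 0.00 with 1 library left out. Ndufb1-ps was at 0.00 without both muscle libraries. The cause of these changes was not tested. With 3 libraries a group, the smallest difference of a called member named here was -0.50, for Ndufa10.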
